A study of Mus musculus with 12 samples.

Results

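Cells make cholesterol from acetyl-CoA, take it up, store it as esters and send it out, and 32 genes of these processes were followed in Sirt3 WT and KO mouse embryonic fibroblasts (MEFs). They were taken as a list of names sorted by role, and each matched 1 identifier in the table: 18 enzymes of synthesis, 7 regulators, 5 genes of uptake, trafficking and storage, and 2 exporters. This list and the others below were chosen with earlier results of these data known. A share of calls above that of all genes is therefore no independent support. All 32 were found among the 34866 genes of the deposited table. Levels are in TPM, the share of a library's transcripts scaled for length. Of the 32, 30 averaged 1 TPM or more over the 12 libraries and were tested with all 12504 genes at that level, and the 2 exporters, Abca1 and Abcg1, lay below it. Some other genes of cholesterol handling were not analysed here.

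Polyadenylated RNA of WT and KO MEFs of each sex was sequenced, which makes 4 groups of 3 libraries. The WT cells came from 13-day embryos of 129S1/SvImJ mice and the KO cells from embryos of a Sirt3-/- line of the same supplier, whose strain was not stated separately. Cells of every group were immortalized with an SV40 T-antigen plasmid, used at passage 6 and harvested 48 h after seeding. Sirt3 encodes a mitochondrial deacetylase, and cultures were seeded in triplicate from an unstated number of lines per group. The p-values therefore measure the spread between cultures, and if each group was 1 line, the line cannot be told apart from genotype and sex. TPM are scaled for transcript length and to a fixed total, so levels of different genes can be compared, but the files used hold no read totals, so the depth behind a value was not known here.

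Sirt3 itself (ENSMUSG00000025486.17, chr7:140863666-140882309 of GRCm38) was read first. Its TPM, for replicates 1 to 3 in order, were 6.59, 7.17 and 9.07 in male WT, 8.88, 10.9 and 11.0 in male KO, 7.40, 7.60 and 8.69 in female WT and 7.57, 9.06 and 8.19 in female KO. The libraries labelled KO were not below those labelled WT, and the values of KO and WT overlapped in both sexes. The log2 fold change was 0.39 (standard error 0.14, limma adjusted p = 0.0981) in males and 0.059 (standard error 0.11, limma adjusted p = 0.772) in females. Gene-level TPM do not show whether a transcript is intact. In what follows, KO means a library labelled KO, and each direction given for KO rests on that label.

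The labelled cell type was checked with marker genes. All 6 fibroblast markers were tested, with summed TPM of 8419 ± 495 in male WT, 10336 ± 241 in male KO, 6547 ± 85.8 in female WT and 8316 ± 157 in female KO (SD, n = 3 each), led by Col1a1 at a mean of 3336 TPM. Of them 3 were higher in male KO and 5 in female KO by limma, with none lower. For all 12504 genes tested, 10.7% were called higher and 10.9% lower in male KO, and 5.63% higher and 5.84% lower in female KO. Among macrophage markers Adgre1 was listed at 0 in every library, the summed level of the 6 genes was 6.02 ± 1.65 in male WT, 8.56 ± 2.62 in male KO, 8.02 ± 1.26 in female WT and 6.40 ± 1.93 in female KO, Cd68 was the most abundant at 6.61 TPM, and the 1 gene tested was not called. Csf1r, which lay under 1 TPM on average, was 0.208 ± 0.0682 TPM in male WT, 1.41 ± 0.199 in male KO, 0.164 ± 0.0812 in female WT and 0.287 ± 0.0743 in female KO. In the fit without the filter on low values it was higher in male KO (0.997, SE 0.080, limma adjusted p = 0.00399; interaction 0.85, adjusted p = 0.00190), and the low epithelial gene Krt8 (-0.33, SE 0.039, limma adjusted p = 0.0114; interaction -0.25, adjusted p = 0.428) and endothelial gene Cdh5 (-0.065, SE 0.012, limma adjusted p = 0.0344; interaction 0.0086, adjusted p = 0.965) were lower there. The 5 epithelial genes summed to 77.1 ± 0.969 in male WT, 8.25 ± 0.469 in male KO, 21.6 ± 1.65 in female WT and 8.43 ± 1.50 in female KO, with Krt19 the most abundant at 24.0 TPM, and the 3 tested were lower in KO in both sexes. For Krt19 the log2 fold change was -3.01 (SE 0.074, limma adjusted p = 3.02e-06) in males and -1.10 (SE 0.17, limma adjusted p = 0.00959) in females. The 4 endothelial genes summed to 1.81 ± 0.177 in male WT, 1.49 ± 0.0991 in male KO, 5.18 ± 0.532 in female WT and 2.11 ± 0.233 in female KO, led by Kdr at 2.30 TPM, the 1 gene tested, which was lower in female KO (limma adjusted p = 0.00368, interaction 0.00625). The 5 adipocyte genes summed to 16.4 ± 0.596 in male WT, 11.8 ± 0.319 in male KO, 6.20 ± 1.19 in female WT and 7.02 ± 0.476 in female KO, led by Pparg at 7.25 TPM. Lep was at 0 in every library. Of the 2 adipocyte genes tested, Fabp4 was lower in male KO (limma adjusted p = 3.56e-04, interaction 0.00139), where its mean fell from 6.69 to 1.08 TPM. Pparg was called in neither sex. Its mean went the other way, from 9.48 to 10.6 TPM with KO in males and from 3.90 to 5.07 in females. The part of these marker differences in the changes of cholesterol genes was not tested. In bulk RNA, fewer cells of a kind and less RNA per cell cannot be told apart.

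As background, sterol synthesis starts with acetyl-CoA, runs through mevalonate to farnesyl diphosphate, through squalene to lanosterol, and by removal of methyl groups and shifts of double bonds to cholesterol. When membranes of the endoplasmic reticulum hold little cholesterol, SCAP escorts SREBP to the Golgi for cleavage, and the released factor activates genes of synthesis and uptake, while INSIG proteins keep SCAP and SREBP in place when sterols are plentiful. Liver X receptors (LXR) sense oxysterols and induce genes of export and Mylip, which directs the breakdown of lipoprotein receptors. Fibroblasts in culture make cholesterol and also take it up from serum lipoproteins.

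Promoter sequences of 26 of the 32 genes were matched by symbol in RefSeq windows of GRCm38.p6, and Fdps, Fdft1, Sqle, Stard4, Npc1 and Abcg1 had no entry. A pair of motifs were searched on both strands over 250 bases before and 50 after the start. TCACNCCAC, a form of the sterol regulatory element bound by SREBP, was found in 408 of 32851 windows (1.24%) and in a window of 1.44% of all genes. Among the matched genes only Hmgcs1 held it. CCAAT, the box bound by the cofactor NF-Y, was in 37.4% of all windows and in a window of 41.1% of all genes. It was in a window of 21 of the 26 genes, with 14 of 15 synthesis enzymes (all but Acat2), 4 of 7 regulators, all 3 matched genes of uptake, trafficking and storage, and not Abca1. A match describes these letters only, and it shows no binding. Other forms of the sterol element were not searched, so a window without a match is not shown to lack one. The bases before the start are printed for 5 genes that were called in a comparison of KO with WT, picked after their values were seen, so that a reader can see the motifs beside genes of synthesis, regulation and uptake, with both motifs in capitals (ATTGG is CCAAT on the other strand). Bases past the first start annotated in GENCODE were left off.
Hmgcs1 (chr13:119690101-119690350, + strand): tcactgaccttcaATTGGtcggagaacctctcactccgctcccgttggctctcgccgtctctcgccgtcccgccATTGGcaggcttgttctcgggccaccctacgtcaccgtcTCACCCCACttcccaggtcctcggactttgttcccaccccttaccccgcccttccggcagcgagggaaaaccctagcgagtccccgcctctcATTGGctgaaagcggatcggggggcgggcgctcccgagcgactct
Mvd (chr8:122443423-122443672, - strand): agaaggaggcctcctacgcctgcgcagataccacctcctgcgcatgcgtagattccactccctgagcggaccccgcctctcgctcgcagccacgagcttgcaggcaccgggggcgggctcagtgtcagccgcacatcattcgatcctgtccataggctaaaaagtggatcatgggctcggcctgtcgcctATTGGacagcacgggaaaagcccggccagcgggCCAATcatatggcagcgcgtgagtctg
Srebf2 (chr15:82147019-82147180, + strand): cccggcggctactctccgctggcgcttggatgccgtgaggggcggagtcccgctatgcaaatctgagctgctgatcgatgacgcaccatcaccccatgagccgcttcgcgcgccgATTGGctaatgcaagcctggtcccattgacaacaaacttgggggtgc
Insig1 (chr5:28071162-28071362, + strand): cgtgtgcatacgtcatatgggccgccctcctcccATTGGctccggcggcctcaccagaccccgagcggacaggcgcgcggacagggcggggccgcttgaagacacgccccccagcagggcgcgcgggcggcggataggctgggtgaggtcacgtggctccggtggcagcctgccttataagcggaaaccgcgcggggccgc
Mylip (chr13:45389492-45389741, + strand): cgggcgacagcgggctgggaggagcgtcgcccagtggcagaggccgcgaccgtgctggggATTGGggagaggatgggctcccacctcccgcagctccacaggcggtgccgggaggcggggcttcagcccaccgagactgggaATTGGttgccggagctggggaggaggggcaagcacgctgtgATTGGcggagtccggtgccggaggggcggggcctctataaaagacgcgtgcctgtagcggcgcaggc
In Hmgcs1 the sterol element ended 128 bases before the start, between CCAAT boxes that ended 171 and 40 bases before it. Mvd carried 2 CCAAT boxes, 55 and 22 bases from the start, Mylip 3, and Srebf2 and Insig1 1 each.

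The levels of the 32 genes spanned a wide range. Fdps, the farnesyl diphosphate synthase, was highest with a mean of 127 TPM over the 12 libraries (range 104 to 153) and held 18.2% of the summed TPM of the synthesis enzymes. Srebf2 (94.8 TPM), Npc2 (89.8), Srebf1 (77.9) and Soat1 (74.0) followed, and their ranges over libraries overlapped. The least abundant enzyme by the mean over all libraries was Nsdhl at 13.3 TPM. In the KO groups Hsd17b7 was lower, at 13.4 TPM against 13.9 for Nsdhl in males and 14.8 against 16.1 in females. Of the LXR genes, Nr1h2 stood at 48.5 TPM and Nr1h3 at 1.65. The exporters were lowest, with Abca1 at 0.833 and Abcg1 at 0.444 TPM.

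**Figure D1:**
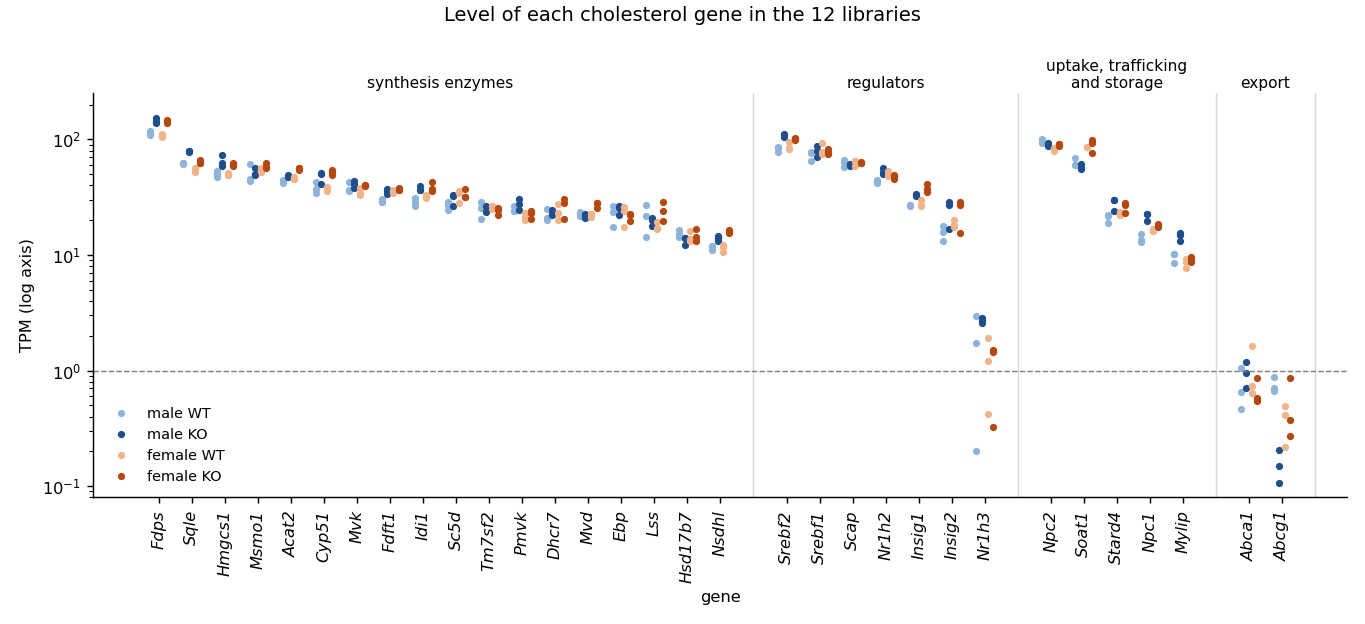
TPM of each of the 32 genes in each of the 12 libraries, on a log axis, with genes grouped by role and ordered by mean within a group; each point is 1 library and the dashed line marks 1 TPM. Fdps is highest at a mean of 127 TPM and only Abca1 and Abcg1 have means below 1 TPM.

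The synthesis enzymes were compared first between KO and WT within each sex, by limma on log2(TPM+1) with an adjusted p under 0.05 as the threshold. In male KO MEFs 5 of the 18 were higher (Hmgcs1, Idi1, Fdps, Fdft1 and Sqle) and none was lower. In female KO MEFs 7 were higher (Acat2, Hmgcs1, Mvd, Fdps, Sqle, Cyp51 and Nsdhl) and none was lower. Over all 12504 genes, 10.7% were called higher and 10.9% lower in male KO (21.6% in all), and 5.63% higher and 5.84% lower in female KO (11.5% in all). Among genes that averaged 10 TPM or more, a level chosen after the data were seen and reached by all 18 enzymes, 11.5% were higher in male KO and 6.53% in female KO. The enzymes' share was 27.8% in males and 38.9% in females. Since the list was chosen with earlier results of these data known, this excess is only descriptive. With 1 library left out, 3 to 5 enzymes were called in males and 4 to 6 in females. Calls over all genes then fell from 2707 to between 1813 and 2318 in males, and from 1434 to between 774 and 835 in females. The median log2 fold change of the enzymes was 0.15 in males and 0.21 in females, against -0.015 and -0.023 over all genes. With median-of-ratios scaling the split of all calls in females moved from 704 higher and 730 lower to 841 higher and 577 lower.

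By stretch of the pathway, 3 of the 7 enzymes from acetyl-CoA to farnesyl diphosphate were higher in male KO and 4 in female KO. Of the 3 from there to lanosterol, 2 were higher in males and 1 in females. Of the 8 after lanosterol, none was called in males and 2 were higher in females. With 10.7% of all genes higher in male KO and 5.63% in female KO, stretches of 3 to 8 genes are too short for a count of none to be read as a result about them. The summed TPM of the 18 enzymes was 646 ± 18.7 in male WT, 749 ± 14.9 in male KO, 644 ± 11.7 in female WT and 758 ± 12.3 in female KO (SD, n = 3 each), a ratio of KO to WT of 1.16 in males and 1.18 in females. Every KO sum lay above every WT sum of the same sex.

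**Figure D2:**
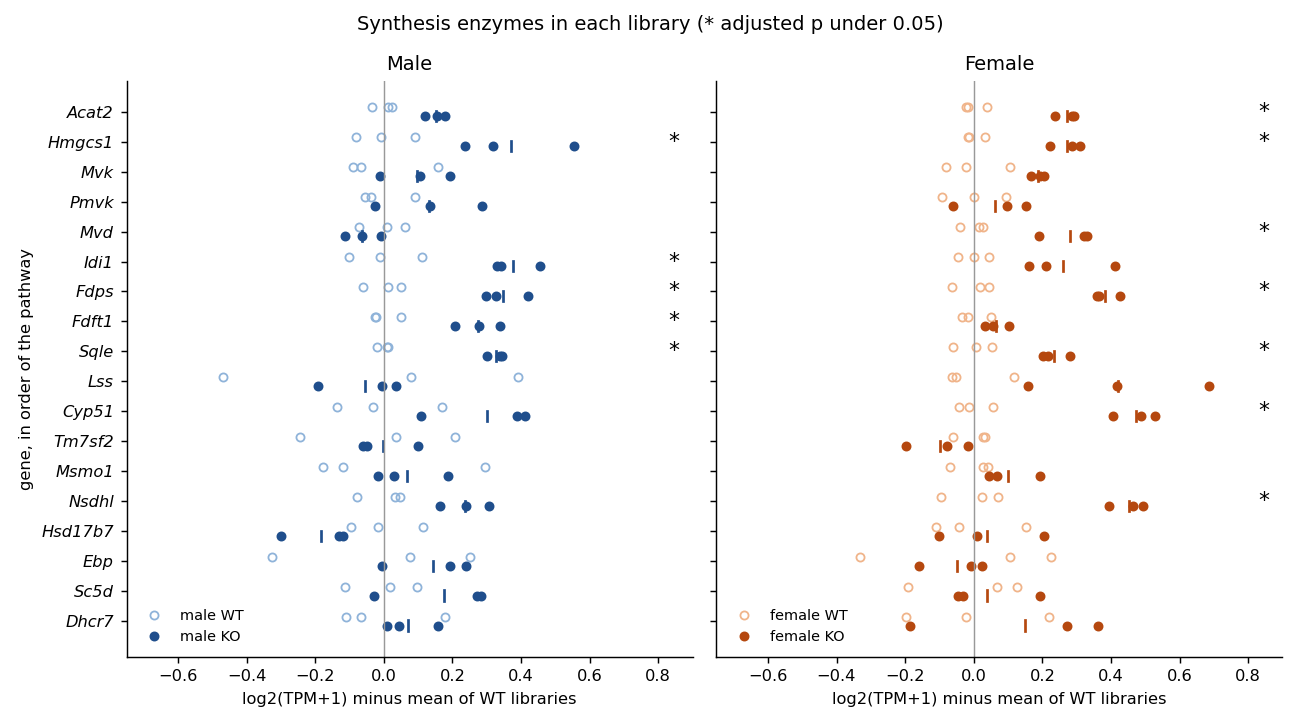
Each of the 18 synthesis enzymes in the order of the pathway, male libraries on the left and female on the right; the horizontal axis is log2(TPM+1) minus the mean of the 3 WT libraries of that sex, open circles are WT, filled circles KO and short bars KO means. Asterisks mark the 5 enzymes in males and 7 in females with a limma adjusted p under 0.05, and in each of these every KO library lies to the right of every WT library.

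Fdps (ENSMUSG00000059743.12, chr3:89093588-89101959), which makes the farnesyl diphosphate shared by sterols and prenylated proteins, had TPM of 118, 115 and 109 in male WT, 143, 139.9 and 153 in male KO, 110.0, 104 and 112 in female WT and 139, 140.1 and 146 in female KO. KO and WT did not overlap in either sex. The log2 fold change was 0.35 (standard error 0.051, limma adjusted p = 0.00368) in males and 0.38 (standard error 0.041, limma adjusted p = 0.00245) in females. Sqle, the squalene epoxidase, had TPM of 61.4, 62.9 and 62.8 in male WT, 77.1, 79.4 and 79.1 in male KO, 56.0, 51.7 and 54.3 in female WT and 62.9, 62.2 and 65.8 in female KO. Its KO libraries were above the WT libraries in both sexes, and male libraries were above female ones of the same genotype. Its change was 0.33 (SE 0.041, limma adjusted p = 0.00205) in males and 0.23 (SE 0.048, limma adjusted p = 0.0258) in females. The female call of Sqle was lost without any 1 of female WT replicate 2 or 3 or female KO replicate 1, 2 or 3 (adjusted p from 0.0602 to 0.0792 by limma) and with no mean-variance trend (0.0537), within a range over unblocked alternatives of 0.00334 to 0.0792.

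Hmgcs1 (ENSMUSG00000093930.2, chr13:119690379-119708260), the cytosolic HMG-CoA synthase and the gene with the sterol element above, had TPM of 47.2, 49.7 and 53.2 in male WT, 62.6, 73.9 and 59.1 in male KO, 49.3, 50.9 and 49.2 in female WT and 58.3, 62.0 and 61.0 in female KO. Male KO replicate 2 was the highest library, and the genotypes did not overlap in either sex. Its change was 0.37 (SE 0.091, limma adjusted p = 0.0284) in males and 0.27 (SE 0.043, limma adjusted p = 0.0111) in females. The male call was lost without any 1 of male WT replicate 1 or 2 or male KO replicate 1 (adjusted p from 0.0613 to 0.0892 by limma), without the filter on low values (0.0967) and with no trend (0.0560), within a range over unblocked alternatives of 0.00337 to 0.0967. Acat2, the cytosolic thiolase of the first step, had TPM of 43.8, 42.3 and 44.1 in male WT, 49.2, 47.3 and 48.5 in male KO, 47.1, 45.3 and 45.1 in female WT and 56.2, 54.2 and 56.3 in female KO. KO lay above WT in both sexes, by 0.27 (SE 0.042, limma adjusted p = 0.0106) in females and 0.15 (SE 0.049, limma adjusted p = 0.0689) in males, where the threshold was not met, and the interaction was -0.12 (SE 0.058, limma adjusted p = 0.222). The male value passed without the filter on low values (adjusted p = 0.0289 by limma) and with all libraries in one fit (0.0172).

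Idi1, the isopentenyl diphosphate isomerase, had TPM of 31.1, 28.4 and 26.7 in male WT, 36.6, 39.7 and 36.3 in male KO, 31.9, 32.8 and 30.8 in female WT and 35.7, 36.9 and 42.6 in female KO. KO and WT were separate in both sexes. The change was 0.38 (SE 0.075, limma adjusted p = 0.0130) in males and 0.26 (SE 0.076, limma adjusted p = 0.0776) in females, with an interaction of 0.11 (SE 0.11, limma adjusted p = 0.574). In females it passed with median-of-ratios scaling (0.0488) and with all libraries in one fit (0.0433). Fdft1, the squalene synthase, had TPM of 28.8, 30.4 and 28.9 in male WT, 35.8, 37.4 and 34.0 in male KO, 34.5, 36.6 and 34.9 in female WT and 36.8, 36.2 and 38.0 in female KO. Male WT was below the other 3 groups, and female KO and WT overlapped. Its change was 0.27 (SE 0.061, limma adjusted p = 0.0198) in males and 0.064 (SE 0.050, limma adjusted p = 0.462) in females, and the interaction was 0.21 (SE 0.073, limma adjusted p = 0.0872). The male call of Fdft1 was lost without any 1 of male WT replicate 1 or 3 or male KO replicate 1 or 2 (adjusted p from 0.0516 to 0.0714 by limma).

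Mvd, the decarboxylase that yields isopentenyl diphosphate, had TPM of 22.9, 23.7 and 21.5 in male WT, 22.5, 20.9 and 21.6 in male KO, 22.4, 22.6 and 21.5 in female WT and 27.9, 28.1 and 25.4 in female KO. Female KO stood apart from the other 3 groups, which overlapped. The change was 0.28 (SE 0.063, limma adjusted p = 0.0355) in females and -0.063 (SE 0.069, limma adjusted p = 0.568) in males. The interaction term, the male change minus the female change, was -0.34 (SE 0.087, limma adjusted p = 0.0231), and Mvd was the 1 synthesis enzyme of 18 past the threshold in that test, against 13.0% of all genes. The female call was lost without any 1 of female WT replicate 1, 2 or 3 or female KO replicate 1 or 2 (adjusted p from 0.0815 to 0.109 by limma). The interaction call was lost without any 1 of male WT replicate 2, female WT replicate 3 or female KO replicate 1 or 2 (adjusted p from 0.0551 to 0.0589 by limma).

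Of the enzymes after lanosterol, Cyp51, the lanosterol demethylase, had TPM of 43.2, 34.7 and 37.4 in male WT, 50.3, 51.2 and 41.3 in male KO, 36.8, 36.1 and 38.7 in female WT and 54.0, 49.6 and 52.5 in female KO. The genotypes overlapped in males and not in females. Its change was 0.47 (SE 0.053, limma adjusted p = 0.00279) in females and 0.30 (SE 0.11, limma adjusted p = 0.1004) in males, where it passed with all libraries in one fit (0.0305). Nsdhl, a sterol dehydrogenase that acts in removal of methyl groups, had TPM of 12.1, 11.0 and 11.9 in male WT, 14.7, 13.2 and 13.9 in male KO, 12.1, 11.7 and 10.7 in female WT and 16.6, 16.2 and 15.4 in female KO. KO was above WT in both sexes without overlap. Its change was 0.45 (SE 0.078, limma adjusted p = 0.0153) in females and 0.24 (SE 0.084, limma adjusted p = 0.0931) in males. The female call of Nsdhl was lost without any 1 of female WT replicate 3 or female KO replicate 1 or 2 (adjusted p from 0.0515 to 0.0570 by limma), and the male value passed with all libraries in one fit (0.0361). The interaction was not past the threshold for either gene (limma adjusted p = 0.461 and 0.232), so a difference between the sexes was not shown.

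The remaining enzymes did not pass in either sex. Among those, log2 fold changes ran from -0.18 (Hsd17b7) to 0.18 (Sc5d) in males and from -0.097 (Tm7sf2) to 0.42 (Lss) in females. The kinases Mvk and Pmvk had log2 fold changes of 0.096 and 0.13 in males and 0.19 and 0.063 in females. Msmo1, Ebp and Dhcr7, which act after lanosterol, had values of 0.066, 0.14 and 0.069 in males and 0.10, -0.048 and 0.15 in females. Lss, the lanosterol synthase, varied between replicates, since its TPM ran from 14.4 to 29.0, and the SD within male WT was 6.29. Without female KO replicate 2 its female change was 0.55 (limma adjusted p = 0.0489), from 0.101 with that library. Without male WT replicate 3 its interaction was -0.71 (limma adjusted p = 0.0486), from 0.309 with it.

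Among the 7 regulators, 3 were higher in male KO (Srebf2, Insig1 and Nr1h2) and 1 in female KO (Insig1), with none lower in either, where 10.7% and 5.63% of all genes were higher. The female count, 1 gene of 7, is not read as a result about the regulators. Nr1h2 was the 1 regulator of 7 past the interaction test, which 13.0% of all genes passed. That count is not read as a result about the regulators either. The median log2 fold change of the 7 was 0.30 in males and 0.00076 in females. Srebf2 (ENSMUSG00000022463.8, chr15:82147181-82205379) encodes SREBP2, the form that chiefly drives sterol genes, and had TPM of 78.4, 86.0 and 83.6 in male WT, 105, 112 and 109.7 in male KO, 94.9, 82.4 and 84.3 in female WT and 103, 97.8 and 100.1 in female KO. KO libraries lay above WT in both sexes. Its change was 0.40 (SE 0.051, limma adjusted p = 0.00210) in males and 0.20 (SE 0.059, limma adjusted p = 0.0792) in females. The female value passed without female WT replicate 1, the highest WT library (0.26, limma adjusted p = 0.0293), and with all libraries in one fit (0.0353). The interaction for Srebf2 was 0.20 (SE 0.079, limma adjusted p = 0.147).

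Insig1 (ENSMUSG00000045294.11, chr5:28071363-28078662), itself a target of SREBP that holds SCAP in the endoplasmic reticulum, had TPM of 27.0, 26.3 and 27.1 in male WT, 33.2, 34.0 and 32.4 in male KO, 26.6, 27.2 and 29.7 in female WT and 37.5, 35.4 and 41.5 in female KO. Every KO library was above every WT library of either sex. Its change was 0.30 (SE 0.055, limma adjusted p = 0.00948) in males and 0.44 (SE 0.076, limma adjusted p = 0.0153) in females, with an interaction of -0.14 (SE 0.091, limma adjusted p = 0.387). The female call was lost without any 1 of female WT replicate 1 or 2 or female KO replicate 1 (adjusted p from 0.0503 to 0.0585 by limma). Insig2, its paralog, had TPM of 15.8, 17.8 and 13.1 in male WT, 16.9, 29.0 and 27.2 in male KO, 17.5, 20.2 and 18.0 in female WT and 29.0, 15.5 and 27.1 in female KO. In each KO group 1 library, male KO replicate 1 and female KO replicate 2, lay near the WT values and the others were higher. Its change was 0.59 (SE 0.21, limma adjusted p = 0.0929) in males and 0.30 (SE 0.22, limma adjusted p = 0.434) in females. Without male KO replicate 1 the male change was 0.82 (limma adjusted p = 0.0141), and without female KO replicate 2 the female change was 0.57 (limma adjusted p = 0.0241). The libraries left out there are the ones near the WT values. The larger changes thus follow from that choice and are no support for a change of Insig2.

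Srebf1, which encodes SREBP1 forms that chiefly drive fatty acid genes, had TPM of 64.8, 77.6 and 75.9 in male WT, 71.0, 86.8 and 79.0 in male KO, 92.1, 74.6 and 77.7 in female WT and 78.3, 74.2 and 82.6 in female KO. The genotypes overlapped in both sexes, with changes of 0.12 (SE 0.096, limma adjusted p = 0.437) in males and -0.050 (SE 0.085, limma adjusted p = 0.753) in females. Scap, the escort of SREBP, had TPM of 57.8, 65.9 and 63.6 in male WT, 58.5, 61.7 and 61.2 in male KO, 65.3, 58.7 and 65.5 in female WT and 62.9, 62.4 and 64.1 in female KO. It varied little between libraries, and its 95% interval was -0.19 to 0.10 in males and -0.13 to 0.13 in females, with limma adjusted p of 0.655 and 0.997.

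Nr1h2 (ENSMUSG00000060601.13, chr7:44549616-44553951), which encodes the widely expressed LXR beta, had TPM of 42.1, 44.9 and 43.3 in male WT, 52.6, 56.5 and 50.2 in male KO, 47.8, 49.8 and 53.2 in female WT and 47.2, 49.2 and 45.1 in female KO. Male KO was above male WT without overlap, while the female groups overlapped. Its change was 0.28 (SE 0.061, limma adjusted p = 0.0177) in males and -0.090 (SE 0.058, limma adjusted p = 0.370) in females, and the interaction was 0.37 (SE 0.083, limma adjusted p = 0.0119). The male call was lost without any 1 of male WT replicate 1 or 3 (adjusted p from 0.0584 to 0.0605 by limma). Nr1h3, which encodes LXR alpha, was low, with TPM of 2.95, 1.74 and 0.201 in male WT, 2.57, 2.68 and 2.83 in male KO, 0.417, 1.20 and 1.91 in female WT and 1.50, 0.327 and 1.46 in female KO. The male KO libraries were alike and the other groups spread widely, with male WT replicate 3 at 0.201. Its change was 0.65 (SE 0.41, limma adjusted p = 0.307) in males and -0.052 (SE 0.36, limma adjusted p = 0.948) in females.

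**Figure D3:**
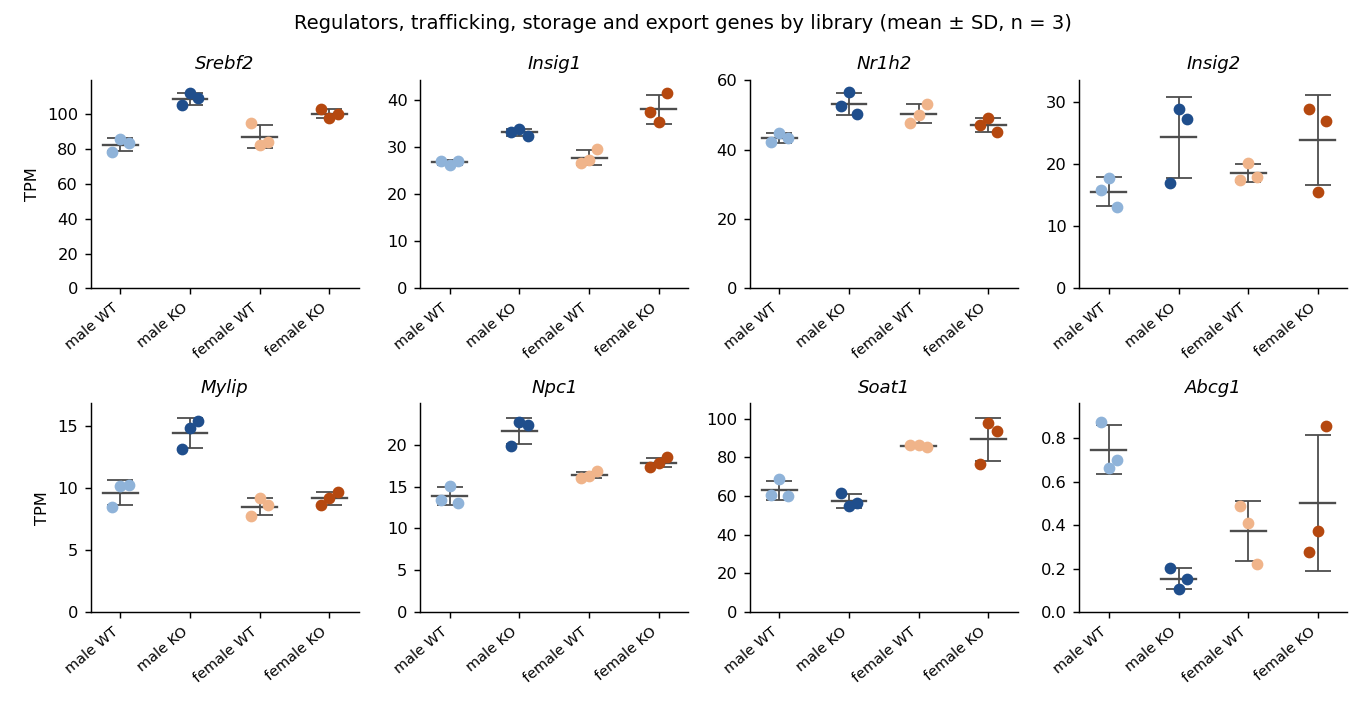
TPM of 8 genes of regulation, trafficking, storage and export in the 4 groups; points are libraries, long bars group means and whiskers the SD (n = 3). Srebf2, Insig1, Nr1h2, Mylip and Npc1 are higher in male KO than in male WT in every library, Soat1 is higher in female than in male libraries of either genotype, and the axis of Abcg1 ends below 1 TPM.

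Of the 5 genes of uptake, trafficking and storage, 3 were higher in male KO (Mylip, Stard4 and Npc1), none was called in female KO, and none was lower, where 10.7% and 5.63% of all genes were higher. The female count, none of 5, is not read as a result about these genes. Log2 fold changes were above 0 for 3 of the 5 in males and for all 5 in females. The median of the 5 was 0.40 in males and 0.12 in females. Npc1 (ENSMUSG00000024413.13, chr18:12189692-12236400), the membrane protein that passes cholesterol out of late endosomes and lysosomes, had TPM of 13.4, 15.1 and 13.0 in male WT, 19.9, 22.7 and 22.4 in male KO, 16.1, 16.3 and 16.8 in female WT and 17.3, 17.8 and 18.5 in female KO. The male KO values exceeded those of the other 3 groups. Its change was 0.61 (SE 0.090, limma adjusted p = 0.00394) in males, the largest called change between KO and WT among the 30 tested genes, and 0.12 (SE 0.063, limma adjusted p = 0.285) in females. The interaction was 0.49 (SE 0.10, limma adjusted p = 0.00857). Npc2, the soluble lysosomal protein that hands cholesterol to Npc1, had TPM of 92.9, 102 and 95.7 in male WT, 89.0, 88.2 and 92.3 in male KO, 83.3, 79.8 and 83.9 in female WT and 88.5, 90.8 and 91.6 in female KO. Male WT was highest and female WT lowest, and the KO groups of both sexes overlapped each other. Its change was -0.11 (SE 0.048, limma adjusted p = 0.173) in males and 0.13 (SE 0.038, limma adjusted p = 0.0735) in females, and the interaction was -0.24 (SE 0.059, limma adjusted p = 0.0209). With median-of-ratios scaling and quantile normalization the female change passed (0.0408 and 0.0477). The interaction call was lost without any 1 of female WT replicate 2 or female KO replicate 3 (adjusted p from 0.0514 to 0.0521 by limma).

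Mylip (ENSMUSG00000038175.10, chr13:45389742-45412022), a ubiquitin ligase induced by LXR that lowers lipoprotein receptors, had TPM of 8.44, 10.1 and 10.2 in male WT, 13.1, 14.8 and 15.4 in male KO, 7.71, 9.14 and 8.62 in female WT and 8.63, 9.19 and 9.64 in female KO. Male KO was above all other groups. Its change was 0.54 (SE 0.11, limma adjusted p = 0.0133) in males and 0.099 (SE 0.097, limma adjusted p = 0.565) in females, and the interaction was 0.44 (SE 0.14, limma adjusted p = 0.0645). The male call was lost without male KO replicate 3 (adjusted p = 0.0541 by limma). The interaction passed without male KO replicate 1 (0.51, limma adjusted p = 0.0492) and with no mean-variance trend (0.0498). Stard4, a soluble sterol carrier, had TPM of 22.3, 21.7 and 19.0 in male WT, 30.1, 30.2 and 24.1 in male KO, 23.3, 22.3 and 22.1 in female WT and 23.2, 27.2 and 28.4 in female KO. The genotypes were separate in males, and in females KO replicate 1 lay within the WT values. Its change was 0.40 (SE 0.11, limma adjusted p = 0.0416) in males and 0.20 (SE 0.084, limma adjusted p = 0.176) in females, with an interaction of 0.19 (SE 0.14, limma adjusted p = 0.450). The male call was lost without any 1 of male WT replicate 1, 2 or 3 or male KO replicate 1 or 2 (adjusted p from 0.0688 to 0.124 by limma), without the filter on low values (0.115) and with no trend (0.0631), within a range over unblocked alternatives of 0.0127 to 0.124. Soat1, which esterifies cholesterol for storage in droplets, did not pass in either sex (-0.13, SE 0.073, limma adjusted p = 0.272, in males and 0.045, SE 0.088, limma adjusted p = 0.791, in females).

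The exporters were near the floor of the table. Abca1, which passes cholesterol to lipid-poor apolipoproteins, had TPM of 0.467, 1.06 and 0.653 in male WT, 0.707, 0.945 and 1.18 in male KO, 0.731, 1.63 and 0.635 in female WT and 0.550, 0.579 and 0.859 in female KO. All groups overlapped. In the fit without the filter on low values its change was 0.18 (SE 0.16, limma adjusted p = 0.568) in males and -0.24 (SE 0.21, limma adjusted p = 0.609) in females. Abcg1, which passes cholesterol to mature lipoprotein particles, had TPM of 0.876, 0.665 and 0.701 in male WT, 0.204, 0.106 and 0.151 in male KO, 0.490, 0.411 and 0.219 in female WT and 0.274, 0.373 and 0.858 in female KO. Male KO lay below all other groups. In the same fit its change was -0.60 (SE 0.061, limma adjusted p = 0.00763) in males, where 10.4% of 22401 genes were called, and 0.11 (SE 0.17, limma adjusted p = 0.784) in females. The interaction was -0.71 (SE 0.19, limma adjusted p = 0.0548). At these levels log2(TPM+1) understates a fold, and the reads behind each value are not in the files used.

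Over the 30 tested genes, 11 were higher in male KO and 8 in female KO, and none was lower. The share was 36.7% in males and 26.7% in females, against 10.7% and 5.63% of all genes higher. As the genes were chosen with earlier results of these data known, this excess is no independent support. With 1 library of the sex left out the count fell in every case, to 7 to 10 in males (7 without male WT replicate 1) and 4 to 7 in females (4 without female KO replicate 1). It was 9 and 7 with no mean-variance trend, and 14 and 10 with all libraries in one fit. Hmgcs1, Fdps, Sqle and Insig1 were called in both sexes, which is 36.4% of the male and 50.0% of the female calls, and these comparisons share no library. The 4 became 2 without female KO replicate 1 or female WT replicate 2 (Fdps and Hmgcs1) and with no trend (Fdps and Insig1), and 9 with all libraries in one fit. Fdps was called in both sexes under every alternative. Of all genes higher in male KO 22.6% were also higher in female KO, and of those higher in female KO 43.2% in male KO. The interaction test called Mvd, Nr1h2, Npc1 and Npc2, 13.3% of the 30, near the share of all genes. A gene called in 1 sex and not in the other is not shown to differ between the sexes unless this test called it.

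**Figure D4:**
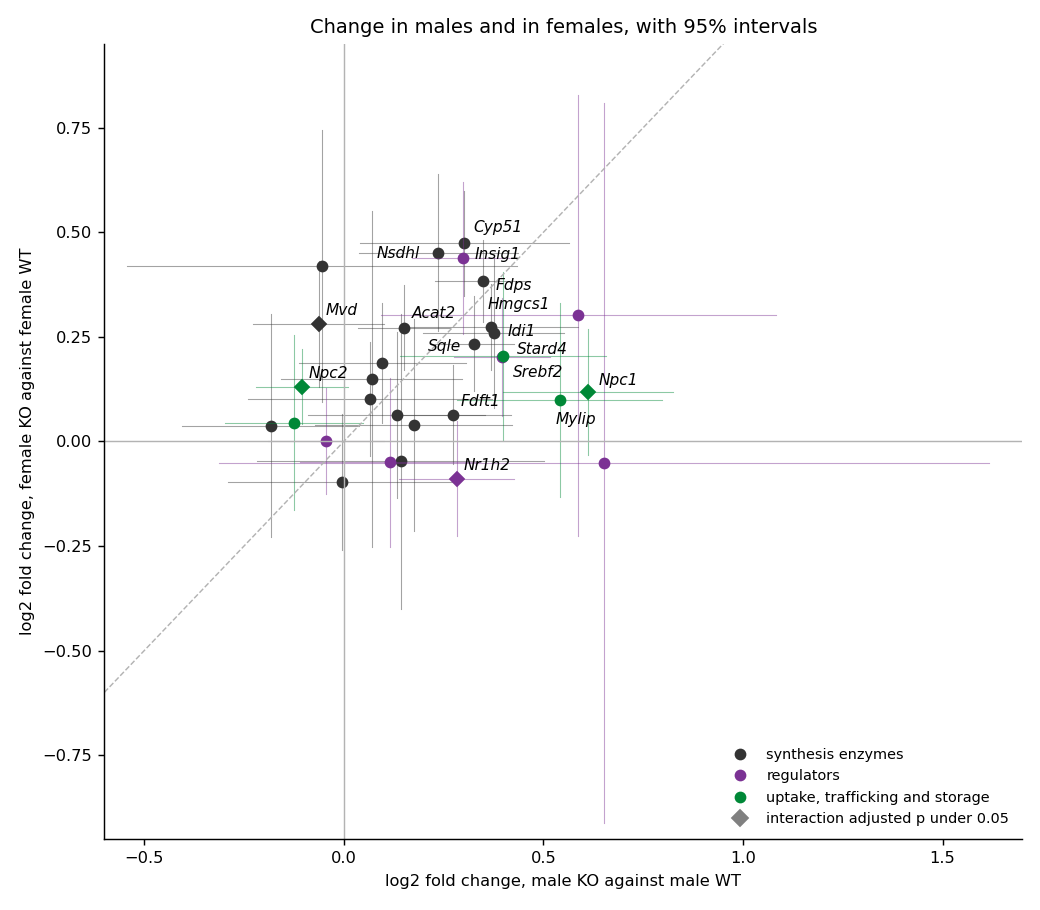
Log2 fold change of KO against WT in males (horizontal) and in females (vertical) for the 30 tested genes, colored by role, with 95% intervals as thin lines, the line of equal change dashed, and genes called in the male, female or interaction test named. Diamonds mark the 4 genes past the interaction test, of which Npc1 and Nr1h2 lie to the right of the dashed line and Mvd and Npc2 to the left.

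Other genes of the pathway were read from 6 lists of 55 genes, of which 53 were tested. In male KO 9 were higher and 2 lower, and in female KO 4 were higher and none lower. Calls in either direction were 20.8% and 7.55%, next to 21.6% and 11.5% over all genes. The share called higher was 16.98% in male KO, against 10.7% of all genes, and 7.55% in female KO, against 5.63%. Log2 fold changes were above 0 for 66.04% of the 53 in males and 52.83% in females, against 47.41% and 44.94% of all genes. Since these lists too were chosen with earlier results known, this is only descriptive. The median log2 fold change of the 53 was 0.089 in males and 0.014 in females. Of 10 genes of SREBP processing and sterol-regulated degradation, Rnf145, a ubiquitin ligase of the endoplasmic reticulum, was lower in male KO (-0.72, SE 0.16, limma adjusted p = 0.0191; interaction -0.81, adjusted p = 0.0574) and none passed in females. That call was lost without any 1 of male WT replicate 2 or male KO replicate 1 or 3 (adjusted p from 0.0637 to 0.0665 by limma) and without the filter on low values (0.0890), within a range over unblocked alternatives of 0.00335 to 0.0890. Its interaction passed with median-of-ratios scaling (0.0468), with quantile normalization (0.0465), without male WT replicate 1 (0.0156), without female WT replicate 3 (0.0425) and without female KO replicate 2 (0.0340). A list of 11 genes, made for other isoprenoid branches, also took in the mitochondrial thiolase Acat1. From that list, Acat1 (0.43, SE 0.075, limma adjusted p = 0.00759; interaction 0.14, adjusted p = 0.601) and Dhdds, of dolichol synthesis (0.40, SE 0.083, limma adjusted p = 0.0145; interaction 0.21, adjusted p = 0.605), were higher in male KO. The Dhdds call was lost without any 1 of male WT replicate 1 or 3 or male KO replicate 3 (adjusted p from 0.0508 to 0.0568 by limma) and with all libraries in one fit (0.0644), within a range over unblocked alternatives of 0.00902 to 0.0644.

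Of 11 fatty acid genes driven by SREBP, the desaturases Fads1 (0.53, SE 0.045, limma adjusted p = 3.28e-04; interaction 0.44, adjusted p = 2.86e-04), Fads2 (0.50, SE 0.046, limma adjusted p = 4.31e-04; interaction 0.35, adjusted p = 0.00189) and Scd2 (0.35, SE 0.044, limma adjusted p = 0.00182) were higher in male KO. In female KO Scd2 (0.40, SE 0.038, limma adjusted p = 0.00139) and the elongase Elovl6 (0.47, SE 0.070, limma adjusted p = 0.00908; interaction -0.47, adjusted p = 0.00546) were higher. The interaction thus passed for Fads1, Fads2 and Elovl6, and it did not for Scd2 (limma adjusted p = 0.643). Scaling changed the female value of Fads2, 0.15 (SE 0.041, limma adjusted p = 0.0585), to adjusted p = 0.0371 with median-of-ratios scaling and 0.0344 with quantile normalization, and all libraries in one fit gave 0.0291. Of 5 other LXR targets, 4 were tested and Smpdl3a, a phosphodiesterase, was higher in male KO (0.68, SE 0.17, limma adjusted p = 0.0306; interaction 0.84, adjusted p = 0.0370), from 0.855, 1.23 and 0.758 TPM in male WT to 2.32, 2.03 and 1.98 in male KO. That call was lost without any 1 of male WT replicate 1 or 3 or male KO replicate 1, 2 or 3 (adjusted p from 0.0587 to 0.0906 by limma). Its interaction call was lost without any 1 of male WT replicate 1 or 3, male KO replicate 1, 2 or 3, female WT replicate 1 or 2 or female KO replicate 1 or 3 (adjusted p from 0.0585 to 0.0855 by limma) and with a pseudocount of 0.1 (0.0510), within a range over unblocked alternatives of 0.00640 to 0.0855.

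Of 14 sterol transport genes, Vldlr, a lipoprotein receptor that Mylip also targets, stood at 7.59, 6.59 and 5.43 TPM in male WT and 19.4, 19.1 and 20.4 in male KO (1.46, SE 0.12, limma adjusted p = 2.74e-04; interaction 1.45, adjusted p = 9.68e-04), against 5.68 ± 0.278 in female WT and 5.85 ± 1.54 in female KO (SD, n = 3 each). Stard5, a relative of Stard4, was 5.06, 5.73 and 5.41 TPM in male WT and 13.6, 13.5 and 13.8 in male KO (1.19, SE 0.090, limma adjusted p = 1.84e-04; interaction 0.84, adjusted p = 4.99e-04), against 5.23 ± 0.225 in female WT and 6.96 ± 0.351 in female KO (SD, n = 3 each). Its female change was 0.35 (SE 0.096, limma adjusted p = 0.0636), which did not pass, and it passed with no trend (0.0211) and with all libraries in one fit (0.0146). Cav1, the coat protein of caveolae, was lower in male KO (-0.27, SE 0.064, limma adjusted p = 0.0266) and higher in female KO (0.38, SE 0.073, limma adjusted p = 0.0214), with an interaction of -0.64 (SE 0.10, limma adjusted p = 0.00157). Its call was lost in males without any 1 of male WT replicate 1 or 2 or male KO replicate 1 or 3 (adjusted p from 0.0722 to 0.0781 by limma) and in females without any 1 of female WT replicate 1 or 2 or female KO replicate 1 or 3 (adjusted p from 0.0607 to 0.0714 by limma), and in both without the filter on low values (0.0966 and 0.0854) or with no trend (0.0712 and 0.0536), within ranges over unblocked alternatives of 0.0200 to 0.0966 and 0.00576 to 0.0854. Lrp8, another lipoprotein receptor, was higher in female KO (0.30, SE 0.055, limma adjusted p = 0.0181; interaction -0.15, adjusted p = 0.556), a call lost without any 1 of female WT replicate 1 or 3 or female KO replicate 1 or 2 (adjusted p from 0.0625 to 0.0637 by limma) and with all libraries in one fit (0.0599), within a range over unblocked alternatives of 0.0144 to 0.0637. Of 4 oxysterol enzymes, 3 were tested, and Cyp7b1, an oxysterol hydroxylase, was higher in male KO (1.001, SE 0.19, limma adjusted p = 0.0113; interaction 1.26, adjusted p = 0.00632).

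**Figure D5:**
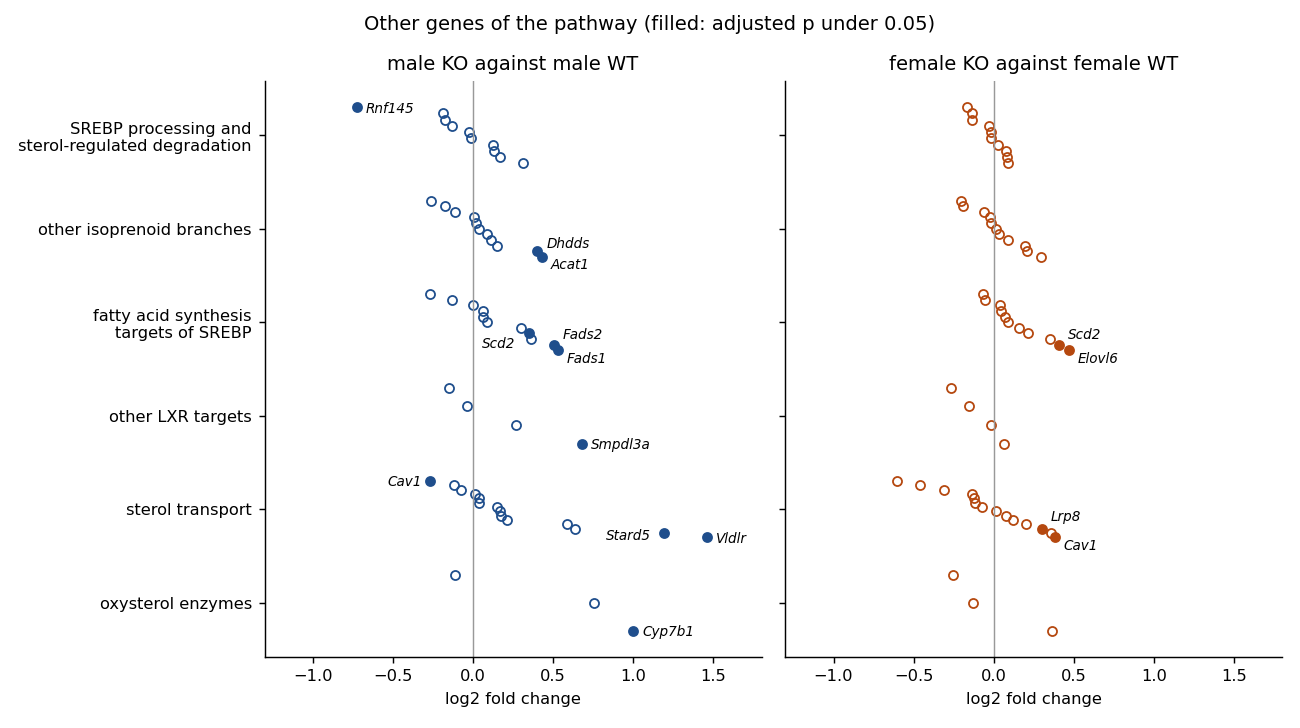
Log2 fold change of KO against WT for the 53 tested genes of 6 further lists, males on the left and females on the right, 1 row per list; filled and named points have a limma adjusted p under 0.05. 9 genes are higher and 2 lower in male KO, with Vldlr farthest right at 1.46, and 4 are higher in female KO.

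The sexes were also compared within each genotype. Between male WT and female WT 12.8% of all genes were called, and 2 of the 30 were higher (Sqle and Npc2) and 2 lower (Fdft1 and Soat1) in males. Between male KO and female KO 16.6% of all genes were called, and 2 of the 30 were higher (Sqle and Mylip) and 3 lower (Acat2, Mvd and Soat1) in males. Soat1 was 63.0 ± 4.85 TPM in male WT, 86.1 ± 0.510 in female WT, 57.6 ± 3.57 in male KO and 89.3 ± 11.1 in female KO (SD, n = 3 each). Its male minus female log2 fold change was -0.45 (SE 0.059, limma adjusted p = 0.00372) in WT and -0.62 (SE 0.097, limma adjusted p = 0.00613) in KO. Sqle differed by 0.20 (SE 0.046, limma adjusted p = 0.0309) in WT and 0.30 (SE 0.043, limma adjusted p = 0.00433) in KO, and Mylip by 0.60 (SE 0.095, limma adjusted p = 0.00628) in KO.

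The WT differences of Fdft1 (-0.26, SE 0.054, limma adjusted p = 0.0226) and Npc2 (0.23, SE 0.047, limma adjusted p = 0.0220) were near the threshold, as were the KO differences of Acat2 (-0.20, SE 0.046, limma adjusted p = 0.0275) and Mvd (-0.31, SE 0.069, limma adjusted p = 0.0246). The Fdft1 call was lost without any 1 of male WT replicate 1 or 3 or female WT replicate 1, 2 or 3 (adjusted p from 0.0548 to 0.0768 by limma), the Npc2 call without any 1 of male WT replicate 2 or 3 or female WT replicate 1, 2 or 3 (adjusted p from 0.0535 to 0.0733 by limma) and the WT call of Sqle without any 1 of male WT replicate 1, 2 or 3 or female WT replicate 2 or 3 (adjusted p from 0.0685 to 0.0927 by limma). With no mean-variance trend the Npc2 and Sqle calls were also lost (0.0574 and 0.0616), within ranges over unblocked alternatives of 0.00291 to 0.0733 and 0.00571 to 0.0927. In KO the Mvd call was lost without any 1 of male KO replicate 2 or 3 or female KO replicate 1 or 2 (adjusted p from 0.0619 to 0.0857 by limma). The Acat2 call was lost without any 1 of male KO replicate 1, 2 or 3 or female KO replicate 1, 2 or 3 (adjusted p from 0.0559 to 0.0906 by limma), with median-of-ratios scaling (0.0510) and with no trend (0.0507), within a range over unblocked alternatives of 0.00471 to 0.0906. Npc1, which was not called between the KO groups (0.0636), passed there without male KO replicate 1 (0.0485), with median-of-ratios scaling (0.0341), with quantile normalization (0.0372) and with all libraries in one fit (0.0260), all by limma. Srebf2 passed between the KO groups with quantile normalization (0.14, limma adjusted p = 0.0477), and Nr1h2 between the WT groups with all libraries in one fit (-0.21, limma adjusted p = 0.0355). Msmo1 passed between the WT groups without male WT replicate 1 (0.0391 by limma).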

How the data were processed

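The deposited values are TPM per gene, quantified by the authors with Salmon (version 1.10.1 in the submitters' processing notes) against GRCm38. The authors ran DESeq2 on TPM; since TPM hold no counts, limma 3.58.1 (R 4.3.3) was used here instead, on log2(TPM+1) and with the variance fitted as a trend of the mean. It took in the 12504 of 34866 genes that averaged 1 TPM or more over 12 libraries. Each comparison within a sex or genotype was a fit of 6 libraries, and the interaction used 12. P-values were adjusted by Benjamini-Hochberg over all genes tested, with calls at 0.05. 0 columns were left unused, and 99.2% of identifiers matched a symbol. The code was tested on simulated data.

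The 32 genes and all lists were chosen with earlier results of these data known. All 32 are named. Values in every library are given for Sirt3, for those past the male, female or interaction threshold, for regulators and for exporters. Of each other list at most the 3 largest called changes in a comparison are named. Alternatives tried were each library left out, a replicate block, 1 fit of all libraries, no trend of the variance, quantile normalization, median-of-ratios scaling, a filter at 5 TPM, no filter, and a pseudocount of 0.1. Losses, gains and ranges given beside single genes leave out the replicate block, which is described only with the sensitivity results.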

Additional observations from a re-analysis of the deposited data

Results flagged for a closer look

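The change between KO and WT differed between the sexes, by the interaction test of limma, for 4 of the 30 tested cholesterol genes and 8 of the 53 tested genes of the other lists. These are 13.3% and 15.1%, next to 13.0% of all genes, so the counts themselves are near the background. Values are the log2 fold change in males minus that in females. Npc1 stood at 0.49 (0.61 in males and 0.12 in females) and Nr1h2 at 0.37 (0.28 and -0.090). Mvd stood at -0.34 (-0.063 and 0.28) and Npc2 at -0.24 (-0.11 and 0.13). The call of Mvd was lost without any 1 of male WT replicate 2, female WT replicate 3 or female KO replicate 1 or 2 (adjusted p from 0.0551 to 0.0589 by limma) and that of Npc2 without any 1 of female WT replicate 2 or female KO replicate 3 (adjusted p from 0.0514 to 0.0521 by limma).

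Among the other genes the male change was the higher for Vldlr (1.45), Cyp7b1 (1.26), Smpdl3a (0.84), Stard5 (0.84), Fads1 (0.44) and Fads2 (0.35), and the lower for Cav1 (-0.64) and Elovl6 (-0.47). The Smpdl3a call was lost without any 1 of male WT replicate 1 or 3, male KO replicate 1, 2 or 3, female WT replicate 1 or 2 or female KO replicate 1 or 3 (adjusted p from 0.0585 to 0.0855 by limma) and with a pseudocount of 0.1 (0.0510), within a range over unblocked alternatives of 0.00640 to 0.0855. With 1 line per group possible, these are differences between groups of cultures, and sex and line cannot be told apart.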

How the results depend on the processing

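No called cholesterol gene changed direction under any alternative. Of the called genes, 6 of 11 in males (Fdps, Idi1, Insig1, Npc1, Sqle, Srebf2), 4 of 8 in females (Acat2, Cyp51, Fdps, Hmgcs1), 2 of 4 in the interaction (Npc1, Nr1h2), 1 of 4 between WT groups (Soat1) and 3 of 5 between KO groups (Mylip, Soat1, Sqle) passed under every alternative. The number of synthesis enzymes called in males was 8 rather than 5 with all libraries in one fit, and 3 to 5 with 1 library left out (3 without male WT replicate 1 or male KO replicate 1). In females it was 4 to 6 with 1 left out (4 without female WT replicate 3 or female KO replicate 1). For the interaction it was 0 to 2, between WT groups 0 to 1 (and 1 with no mean-variance trend) and between KO groups 1 to 2. Over all genes, leaving out 1 library gave 1813 to 2318 calls in males, 774 to 835 in females, 1353 to 1559 for the interaction, 1037 to 1243 between WT groups and 1328 to 1824 between KO groups. Fits with a library left out have fewer samples, and other causes were not tested. TPM hold no read totals, so what depth limits cannot be given.

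The labels do not say that libraries with the same replicate number are paired. Each library's differences from its group mean were correlated, over all tested genes, with those of the library of the same number in each group it is compared with, and r ran from -0.0571 to 0.0779, and 0 of 6 male and 2 of 6 female libraries had their highest r across genotypes with their own number. With the number as a replicate block the counts were 2366 in males, 670 in females, 1518 for the interaction, 1114 between WT groups and 1397 between KO groups. With the block, named calls that did not pass were Hmgcs1 0.0501, Cav1 0.0565 and Smpdl3a 0.0684 in males, Mvd 0.0766, Sqle 0.0662, Elovl6 0.0508 and Lrp8 0.0559 in females, Fdft1 0.0570, Npc2 0.0736 and Sqle 0.0875 between WT groups and Acat2 0.0831 and Mvd 0.0706 between KO groups, and the interaction of Mylip passed (0.0259), as limma adjusted p. The cause was not tested. Of the 30 genes 10 were called in males, 6 in females and 2 (Fdps and Insig1) in both with the block. The synthesis enzymes called were then 4, 5, 1, 0 and 1.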
